A study of Mus musculus with 2 samples.

Results

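The Mir130 and Mir301 genes form a seed family of miRNA genes, grouped because the mature products of their 3′ arms carry the same bases 2 to 8. The family was taken as 4 genes at 3 loci, Mir130a, Mir130b, Mir301 and Mir301b, whose Ensembl identifiers were matched to those symbols in the GENCODE mouse annotation. All 4 were among the 1973 miRNA genes counted. Short RNAs were sequenced from total RNA of the limbs of B6NCrl mouse embryos at embryonic day 13.5, males and females pooled, with a label of healthy tissue. There is 1 group of 2 biological replicates, which came from separate tissue samples under a shared donor label, with no treatment, mutation or second tissue. A comparison between conditions was therefore not possible, and the values describe the family's levels, their order and their spread over 2 libraries. Nothing in the labels gives the number of embryos behind a library, so that spread may be partly technical.

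A mature miRNA guides an Argonaute protein to messenger RNAs that pair with its seed, and genes with a common seed are predicted to share many targets even when the rest of the sequence differs. The family is conserved among vertebrates. In human endothelial cells miR-130a is known to lower the homeobox proteins GAX and HOXA5, and in mammals the family is known to act on PPARG and on receptors of the TGF-beta and BMP pathways. Endothelium, mesenchyme and cartilage precursors, in which those pathways act, all lie within the embryonic limb, and limb RNA mixes them. More cells of a type and more of a miRNA per cell cannot be told apart in such RNA.

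The mature sequences of the 3′ arm are shown because they define the family. They are RefSeq entries on GRCm38.p6, written 5′ to 3′ with bases 2 to 8, the seed, in capitals.
miR-130a-3p: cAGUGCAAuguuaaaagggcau
miR-130b-3p: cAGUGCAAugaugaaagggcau
miR-301a-3p: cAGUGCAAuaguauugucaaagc
The corresponding product of Mir301b is miR-301b-3p. Of 1738 mature mouse sequences in the RefSeq table, 7 (0.403%) had AGUGCAA at bases 2 to 8, the 3 shown above and 4 of genes outside the family. Beyond the seed the family splits into a Mir130 pair and a Mir301 pair. Positions are counted from 1 at the 5′ end of the mature sequence, whose base is written first. Against the Mir130b hairpin, miR-130a-3p differed by U11A and A13G, leaving 20 of 22 bases identical. Against the Mir301b hairpin, aligned without gaps at the seed, miR-301a-3p differed by A10G alone, leaving 22 of 23 bases identical. Across the pairs the sequences were much less alike, with 12 of 22 bases of miR-130a-3p matching the Mir301 hairpin.

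The hairpins are shown because the counts were made per hairpin gene and do not tell the arms apart. Capitals mark the heptamer AGUGCAA, which each hairpin holds once.
Mir130a: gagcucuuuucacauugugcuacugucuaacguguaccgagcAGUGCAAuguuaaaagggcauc
Mir130b: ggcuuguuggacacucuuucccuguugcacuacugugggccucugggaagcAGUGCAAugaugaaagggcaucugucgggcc
Mir301: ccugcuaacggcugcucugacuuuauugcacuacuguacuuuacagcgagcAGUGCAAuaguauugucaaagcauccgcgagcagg
Mir301b: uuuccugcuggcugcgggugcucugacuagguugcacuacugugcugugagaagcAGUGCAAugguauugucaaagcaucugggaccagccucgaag
Of 1005 hairpins in the RefSeq table, 12 (1.19%) held that heptamer anywhere, on the strand of the hairpin. The 4 hairpins were 64 to 97 bases long, with a GC content of 45.3% in Mir130a, 48.8% in Mir301, 53.6% in Mir301b and 56.1% in Mir130b. The 5′ arms lie opposite the 3′ arms in the stem. UUGCACU, the reverse complement of the seed, began at base 13 of miR-130b-5p, miR-301a-5p and miR-301b-5p and was not found in miR-130a-5p. Of the 1738 mature sequences, 10 (0.575%) held UUGCACU, searched on the strand of the miRNA only. The 5′ arms do not share 1 seed across the family: miR-301a-5p and miR-301b-5p both had CUCUGAC at bases 2 to 8, against CUCUUUU in miR-130a-5p and CUCUUUC in miR-130b-5p.

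Coordinates are those of GENCODE on GRCm38, the assembly of mm10. Mir130a lies on chromosome 2 at 84741115 to 84741178 on the minus strand, outside other annotated genes. Its nearest neighbour on that strand was Gm19426, 990 bases away, and Ypel4 on the other strand was 2459 bases away. Mir301 lies on chromosome 11 at 87113004 to 87113089 on the plus strand, in an intron of Ska2, which encodes a subunit of the spindle and kinetochore associated complex, and 2 of 3 annotated Ska2 transcripts span it. Mir130b and Mir301b lie on chromosome 16 at 17124061 to 17124142 and 17124400 to 17124496 on the minus strand. They are 257 bases apart in an intron of 2610318N02Rik, 3 of whose 8 annotated transcripts span each hairpin, and Mir301b is the upstream hairpin.

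The libraries held 12407140 reads in replicate 1 and 12657170 in replicate 2, of which 5927321 and 6003632 fell in a miRNA gene in its own orientation, called sense counts here. Levels are given in CPM, sense counts scaled to a fixed library total. In uniquely mapped reads, a gene without a count may still lie as high as 0.506 CPM in replicate 1 or 0.4997 CPM in replicate 2. No scaling by length was applied, since reads of miRNA libraries come from mature products of nearly the same length. Intervals and limits cover counting error only. An SD over 2 libraries is itself imprecise and can lie below counting error, so a small SD is not a measure of precision. The label of limb was checked on 21 miRNA genes. The limb-position gene Mir196b was at 75238 ± 6154 CPM, the cartilage gene Mir140 at 46627 ± 99.8 CPM, the ectoderm gene Mir203 at 8388 ± 589 CPM and the muscle gene Mir206 at 3841 ± 141 CPM (SD, n = 2 each). The other muscle genes were low, with Mir133b at 75.3 ± 0.03 CPM and Mir1a-1 at 1 count in each library. The neuronal Mir124a-1 and Mir9-2 were at 0 in both libraries, but the neuronal Mir137 was at 129 ± 20.5 CPM, above Mir301b. Multimapping reads were not assigned, so genes with copies elsewhere may be undercounted. Whether that holds for Mir1a-1, Mir124a-1 and Mir9-2 was not tested, so their low counts do not check the tissue. The liver genes Mir122 and Mir192 were at 73.7 ± 9.8 and 83.9 ± 1.4 CPM. The heart gene Mir208a was at 6.8 ± 2.7 CPM and the endothelial gene Mir126a at 20233 ± 844 CPM. The blood genes Mir223, Mir451a and Mir144 had means of 318, 74.8 and 50.9 CPM. Means were 14101 and 1573 CPM for limb-position Mir10b and Mir615, and 2020 CPM for cartilage Mir455. Ectoderm Mir205 and Mir429 had means of 6918 and 3730 CPM.

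All 4 members were detected, a term used for 10 or more sense counts per library, and all passed 100. Of all 1973 genes 18.9% were detected. Together the family held 3.99% of sense counts in replicate 1 (95% exact binomial interval 3.97% to 4.01%) and 4.17% in replicate 2 (4.15% to 4.18%), a mean of 4.08% ± 0.12 (SD, n = 2). The median over the members was 4230 CPM, against 106 CPM over the 372 detected genes, so the family sat high in the limb profile. That median stands for a spread of levels over more than 2 orders of magnitude, and no member lay near it. No antisense count fell on any member in either library.

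**Figure D1:**
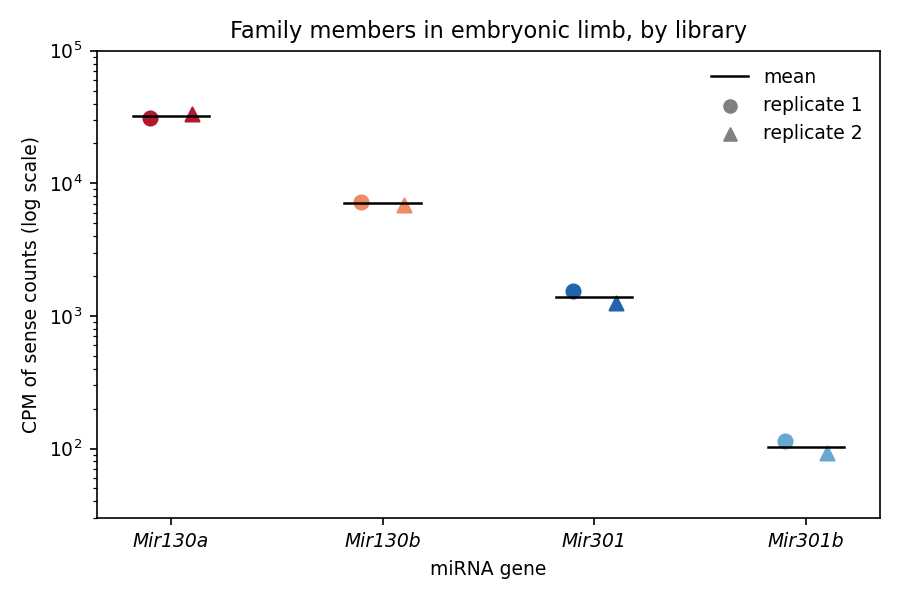
Levels of the 4 members in CPM on a log axis, with a circle for replicate 1, a triangle for replicate 2 and a line for their mean. The members lie at 4 separate levels, and within each the libraries lie close together.

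Mir130a was the leading member and ranked 8th of 1973 genes by mean CPM and 9th in each library alone. Its 183899 sense counts in replicate 1 and 200519 in replicate 2 came to 31026 and 33400 CPM, a mean of 32213 ± 1679 CPM (SD, n = 2). It alone held 3.10% and 3.34% of all sense counts. Within the family its share was 77.8% in replicate 1 and 80.2% in replicate 2, a mean of 79.0% ± 1.7 (SD, n = 2).

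Mir130b, the nearest relative of Mir130a in sequence, was the second member and ranked 28th. It had 42710 and 41528 sense counts in replicates 1 and 2, or 7206 and 6917 CPM, a mean of 7061 ± 204 CPM (SD, n = 2). Its share of the family was 18.1% and 16.6%. Mir130a was 4.31-fold above Mir130b in replicate 1 and 4.83-fold in replicate 2, a log2 ratio of 2.19 ± 0.12 (SD, n = 2).

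Mir301, the Ska2 intronic gene that gives miR-301a, ranked 87th. It had 9205 and 7481 sense counts in replicates 1 and 2, or 1553 and 1246 CPM, a mean of 1400 ± 217 CPM (SD, n = 2). That was 3.89% and 2.99% of the family. Mir130b was 4.64-fold above Mir301 in replicate 1 and 5.55-fold in replicate 2, a log2 ratio of 2.34 ± 0.18 (SD, n = 2).

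Mir301b was the lowest member and ranked 188th. Its 673 and 555 sense counts in replicates 1 and 2 came to 114 and 92.4 CPM, a mean of 103 ± 14.9 CPM (SD, n = 2). It made up 0.285% and 0.222% of the family, with exact 95% intervals of 0.264% to 0.307% and 0.204% to 0.241%. Mir301 was 13.7-fold above Mir301b in replicate 1 and 13.5-fold in replicate 2, a log2 ratio of 3.76 ± 0.02 (SD, n = 2). Even so it was detected in each library, at a level close to that of the median detected gene.

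The order Mir130a, Mir130b, Mir301, Mir301b was the same in both libraries, and every step in it was larger than the spread between them. The smallest step, Mir130a over Mir130b, had a log2 ratio of 2.19 with an SD of 0.12. From the first member to the last the distance was 273-fold in replicate 1 and 361-fold in replicate 2. The Mir130 pair together exceeded the Mir301 pair 22.9-fold in replicate 1 and 30.1-fold in replicate 2, a log2 ratio of 4.72 ± 0.28 (SD, n = 2). Without Mir130a that ratio was 2.24 on the log2 scale, so the direction did not rest on the leading gene alone. Mir130a exceeded the other 3 members combined by a log2 ratio of 1.91 ± 0.15 (SD, n = 2). No p-value is attached to these ratios, as 2 libraries cannot give a two-sided exact permutation p below 0.5.

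**Figure D2:**
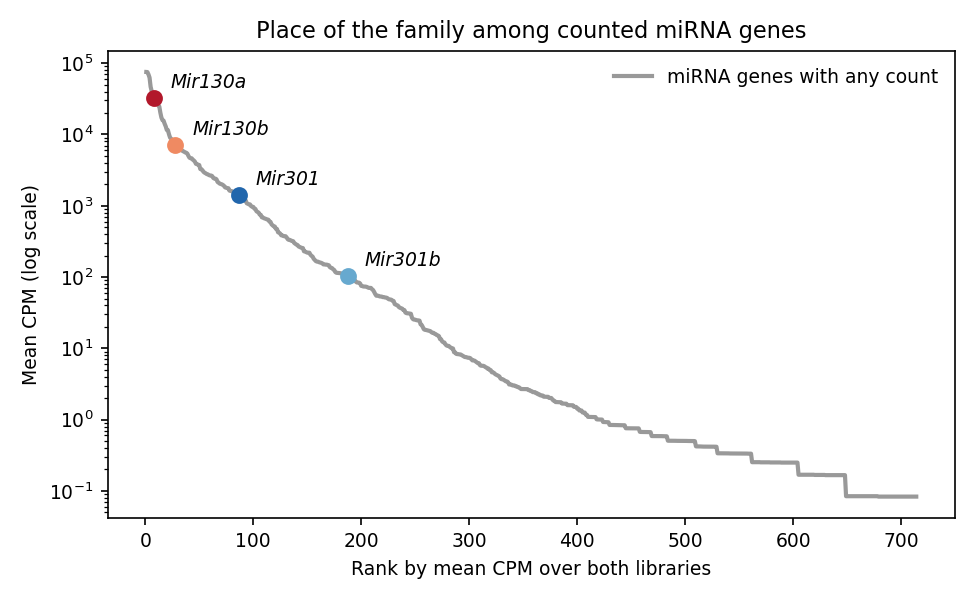
Mean CPM on a log axis against rank for the miRNA genes with any count, with the family members as colored points. Mir130a sits on the steep left end at rank 8, and Mir130b, Mir301 and Mir301b follow at ranks 28, 87 and 188.

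Mir130b and Mir301b lie 257 bases apart on the same strand of 1 host gene, yet their counts differed by far more than the libraries did. Mir130b was at 7206 CPM in replicate 1 and 6917 CPM in replicate 2, and Mir301b at 114 and 92.4 CPM, ratios of 63.4-fold and 74.8-fold. The log2 ratio was 6.11 ± 0.17 (SD, n = 2). Mir130b supplied 98.4% and 98.7% of the counts of the locus. Unequal levels within a cluster were common in these data, so the pair was set beside the 65 pairs of detected genes that follow each other within 1 kb on a strand, a comparison chosen after the values were seen. The median absolute log2 difference over those pairs was 3.01, and 10 pairs differed by more than Mir130b and Mir301b, up to 9.54. Of those 10 pairs, 5 included a gene that shares 22 or more hairpin bases with another annotated miRNA gene, whose counts may be too low because multimapping reads were not assigned. Among the 45 pairs with no such gene the median was again 3.01 and 5 pairs differed by more.

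**Figure D3:**
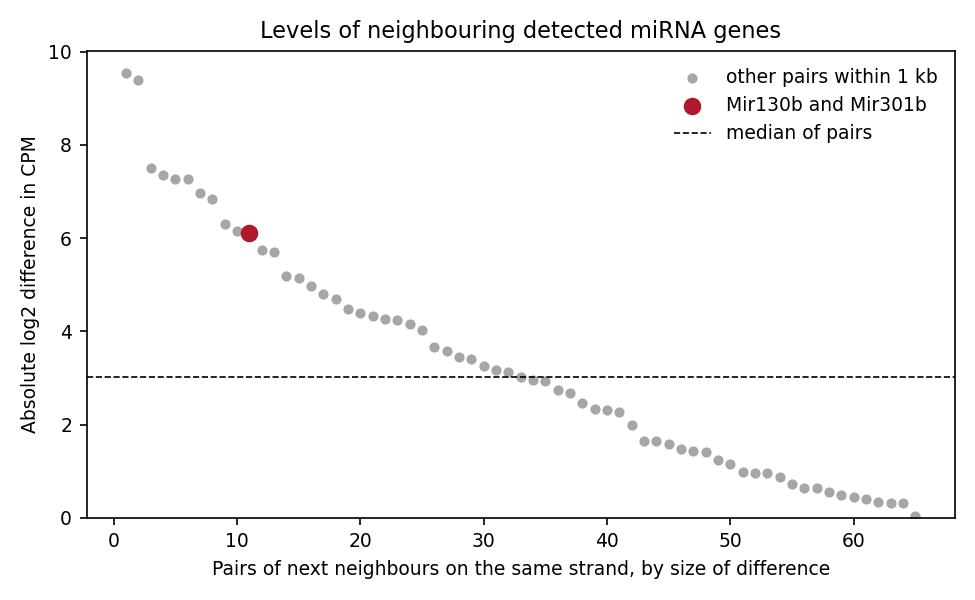
Absolute log2 difference in CPM for 65 pairs of neighbouring detected miRNA genes on the same strand within 1 kb, ordered by size, with the median of 3.01 as a dashed line. The Mir130b and Mir301b pair, at 6.11, stands 11th and well above the median.

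Over whole hairpins the members shared only short uninterrupted stretches with each other or with other miRNA genes. A single mismatch ends such a stretch, so the measure does not speak against the likeness of the 3′ arms given above. No member shared 18 or more identical bases in a row with another of 2202 annotated miRNA genes, on either strand. Of those 2202 genes, 1179 shared such a stretch with another. The longest shared stretches were 17 bases for Mir130a, with Mir6389, and 16 bases for Mir130b, with Mir6368. Mir301 and Mir301b shared 16 bases with each other. The 7 mature sequences of the members that have an entry were each found in 141767 annotated transcripts under their own gene and no other, on either strand. The single difference A10G between miR-301a-3p and the Mir301b hairpin is a narrow margin, and the number of mismatches the aligner allowed is not given in the sources used here. How much of the Mir301b count comes from reads of Mir301, or the reverse, was not tested.

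Another 4 mouse genes in the RefSeq table have the family seed in a mature sequence, outside the family as defined here. They are shown with the seed in capitals because their counts were set beside those of the members.
miR-130c: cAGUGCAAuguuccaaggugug
miR-6341: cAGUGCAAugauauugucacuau
miR-6389: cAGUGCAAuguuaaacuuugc
miR-721: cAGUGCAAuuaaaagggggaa
Mir130c, Mir6341 and Mir6389 are counted, and each had 0 sense and 0 antisense counts in both libraries, within the limit given above. Mir721 was not analysed here. That limit applies to uniquely mapped reads, and the search covers the genes in the RefSeq table, not all genes counted.

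The genes closest to each member in level were named by taking the 2 detected genes next above and below it in mean CPM, with 2 libraries behind each mean. Next to Mir130a lay Mir23b above, at 34952 ± 1513 CPM, and Mirlet7i below, at 31984 ± 3757 CPM (SD, n = 2 each). Mir23b was above Mir130a in both libraries. The order of Mir130a and Mirlet7i was not resolved: Mir130a was higher in replicate 1 (31026 against 29327 CPM) and lower in replicate 2 (33400 against 34641 CPM). The order of Mir130a and Mir17, at 33910 and 27157 CPM in replicates 1 and 2, changed between the libraries too. Mirlet7g, at 40430 ± 1594 CPM, completed the neighbours of Mir130a and was higher in both libraries.

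Mir130b lay between Mir351, at 7768 ± 686 CPM, and Mir181c, at 6926 ± 550 CPM (SD, n = 2 each). Mir351 was higher in both libraries, while Mir181c was higher than Mir130b in replicate 1 and lower in replicate 2. The outer neighbours were Mir127 at 8253 ± 224 CPM and Mir205 at 6918 ± 918 CPM. Mir301 lay between Mir125b-1, at 1441 ± 7.9 CPM, and Mir467d, at 1358 ± 35.8 CPM, with Mir467e and Mir542 outside them. Its place among these 4 genes was not resolved, as Mir301 was above all of them in replicate 1 and below all of them in replicate 2. Mir301b lay between Mir669c, at 105 ± 16.0 CPM, and Mir208b, at 101 ± 0.15 CPM, with Mir412 and Mir31 outside them. Of these only Mir669c kept its side of Mir301b in both libraries.

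Between the libraries the members moved by small amounts and not in the same direction. Mir130a was higher in replicate 2, at 33400 CPM, against 31026 CPM in replicate 1, a log2 ratio of 0.11. Mir130b was at 6917 CPM in replicate 2 and 7206 CPM in replicate 1, a log2 ratio of -0.06. Mir301 was at 1246 CPM in replicate 2 and 1553 CPM in replicate 1, a log2 ratio of -0.32. Mir301b was at 92.4 CPM in replicate 2 and 114 CPM in replicate 1, a log2 ratio of -0.30. Only Mir130a was thus higher in replicate 2. In a two-sided exact binomial test over 444 genes with Benjamini-Hochberg adjustment, a gene was called when the adjusted p was below 0.05 and the absolute log2 ratio at least 1. By that rule 0 of 4 members were called, against 3.38% of all genes tested. By the adjusted p alone 4 of 4 passed, 1 higher and 3 lower in replicate 2, against 40.3% of all genes tested (18.2% higher and 22.1% lower), and the unadjusted p was under 0.05 for the same 4. That test counts reads, and deep genes pass at small ratios: 90.7% of the 97 genes at 1000 CPM or more passed it. The largest adjusted p among the members was 0.00128, for Mir301b, by the exact test.

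The spread of the members can be set beside that of all genes above a minimum level, which differ widely in depth. Over the 190 genes at 100 CPM or more the median absolute log2 ratio between the libraries was 0.13 and the highest 0.73. Mir130a and Mir130b were below that median, with 104 and 138 of the 190 genes differing by more. Mir301 and Mir301b were in the wider part of the range, with 22 and 27 genes differing by more. Mir301b lay at the lower edge of that set, where counting error is largest. Over the 97 genes at 1000 CPM or more the median was 0.11. Of these, 50, 72 and 7 differed by more than Mir130a, Mir130b and Mir301. Mir301 and Mir301b lie on different chromosomes. Their ratio changed by -0.02 on the log2 scale between the libraries (replicate 2 minus replicate 1). Mir130b and Mir301b share a locus, and their ratio changed by 0.24. Both changes rest on 673 and 555 Mir301b counts in replicates 1 and 2, and their counting error was not computed. They therefore do not show which members moved together. Reads of Mir301 counted under Mir301b, or the reverse, could also tie those members and were not tested. The biological coefficient of variation over the 372 detected genes was 0.111 (edgeR). The test compares 2 libraries and not conditions.

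**Figure D4:**
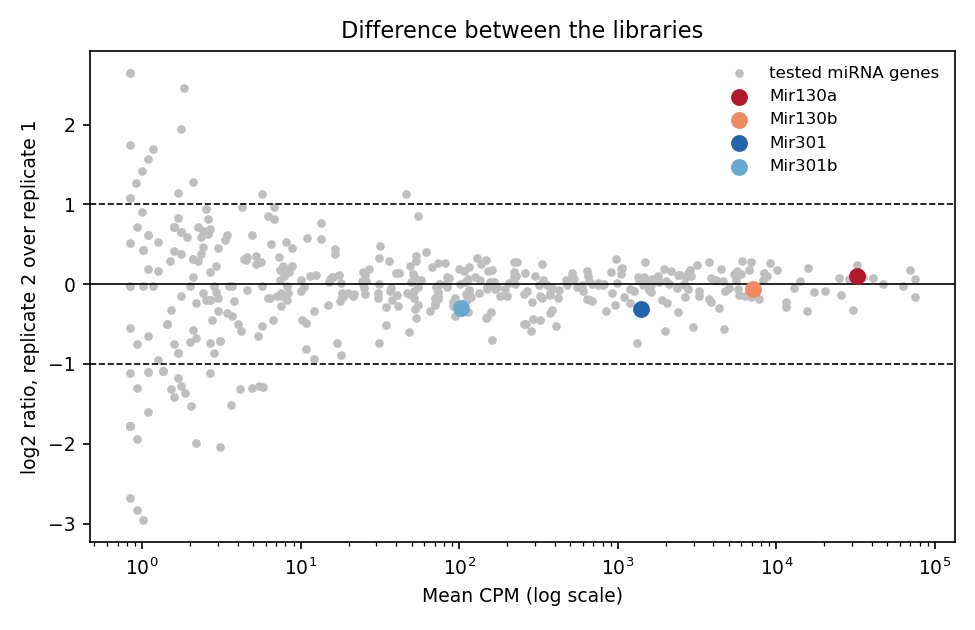
The log2 ratio of replicate 2 over replicate 1 against mean CPM on a log axis for 444 tested miRNA genes in grey, with the members colored and dashed lines at the minimum ratio of 1 in either direction. Mir130a and Mir130b lie near 0, Mir301 and Mir301b lie near -0.3, and all 4 are inside the dashed lines.

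The family was set beside 3 other seed families with genes at several loci. The Mir148 and Mir152 genes carry a seed that overlaps that of the Mir130 family when shifted by a base, the Mir29 genes are known for repressing collagens and other matrix genes, and the Mir30 genes are broadly expressed. The Mir130 and Mir301 family held 4.08% ± 0.12 of sense counts, against 2.33% ± 0.33 for Mir30, 0.122% ± 0.003 for Mir148 and Mir152, and 0.0098% ± 0.0017 for Mir29 (SD, n = 2 each). On the log2 scale the family exceeded Mir30 by 0.81 ± 0.25, Mir148 and Mir152 by 5.07 ± 0.08, and Mir29 by 8.71 ± 0.20 (SD, n = 2 each), in 2 of 2 libraries each. Genes with copies may be undercounted, and the lists differ in them. In the family 0 of 4 members share 22 or more hairpin bases with another annotated gene. That compares with 3 of 6 counted Mir30 genes, 0 of 3 Mir148 and Mir152 genes and 3 of 4 Mir29 genes. Among all 1973 genes counted, 904 share such a stretch. Without genes that share 22 or more bases the log2 ratio over Mir30 was 2.41. That setting left out Mir30e, which held 66.8% of the Mir30 counts, while Mir130a stayed in. An undercount of Mir30e would make the lead of 0.81 too large, and 2.41 does not correct for it. With the leading gene of either list left out, Mir130a and Mir30e, the ratio was 0.15. The lead over Mir30 therefore varied with which genes were weighed. Between the libraries none of the Mir148 and Mir152, Mir29 or Mir30 genes was called. By the adjusted p alone 1 of 3 Mir148 and Mir152 genes passed higher and 1 lower in replicate 2, 1 of 2 tested Mir29 genes passed higher, and 4 of 6 Mir30 genes passed lower. Over all genes tested 3.38% were called, and by the adjusted p alone 18.2% passed higher and 22.1% lower.

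The division of counts among genes was set side by side for the same families. Mir130a held 79.0% of its family's counts, against 75.2% for Mir148a, 66.8% for Mir30e and 62.9% for Mir29a in theirs. Mir148a was at 915 ± 50.5 CPM, Mir30e at 15602 ± 2520 CPM and Mir29a at 61.8 ± 12.0 CPM (SD, n = 2 each). In each of the 4 families a single gene thus held more of the uniquely mapped counts than all its relatives together. Genes with copies may be undercounted, and 3 of 4 Mir29 and 3 of 6 counted Mir30 genes share 22 or more hairpin bases with another gene. The division within those lists may therefore be partly set by reads that were not assigned. The lists also differ in their number of genes, which bears on the effective number given next. Expressed as an effective number of genes, the inverse of the sum of squared shares, the Mir130 and Mir301 family had 1.57 in replicate 1 and 1.49 in replicate 2, against 1.62 and 1.74 for Mir148 and Mir152 and 1.96 and 2.04 for Mir30. Mir29 had 1.91 and 1.86. The value of the Mir130 and Mir301 family was the lowest of the 4 in both libraries. In replicate 1 its distance from the Mir148 and Mir152 list was smaller than the spread between libraries, so which of these families was more uneven was not resolved.

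**Figure D5:**
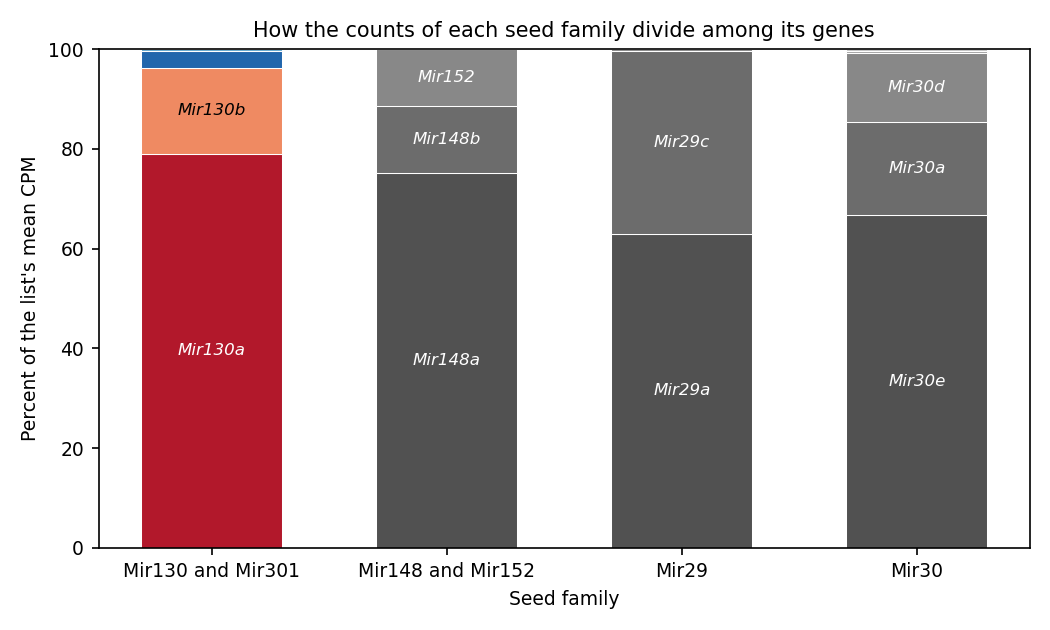
Stacked bars of the percent of each seed family's mean CPM supplied by each gene, with the Mir130 and Mir301 family at left in color and 3 other families in grey. Mir130a takes 79.0% of its bar, with Mir130b most of the rest, and the leading genes of the other families take 62.9% to 75.2%.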

How the data were processed

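The deposited files, 1 per library, hold unnormalized counts of reads in 1973 miRNA genes, in 3 columns read from their layout as either strand, sense and antisense. The assembly is mm10 and the annotation GENCODE M4 per the text deposited with the counts, and which aligner and counter were used is not given in the sources used here. Reads not assigned to a gene, 52.2% and 52.6% of replicates 1 and 2, stayed out of library sizes and tests. Most of them were multimapping reads, 30.8% and 29.5% of all reads, which may lie in miRNA genes. Unmapped reads were 17.2% and 18.6%, and reads mapped to no gene in the sense orientation were 4.24% and 4.48%.

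Symbols and coordinates came from GENCODE M21, matched for 1894 of the 1973 genes, and sequences from RefSeq on GRCm38.p6. All 4 members had a hairpin entry. Sense counts were scaled to CPM. Members, lists and the rule for named genes (the members, other genes with their seed, the 2 detected genes next above and below each in level, genes within 10 kb, and the comparison lists) were chosen with earlier results of these data known. Log2 ratios used a pseudocount of 0.5 counts. The libraries were compared by a two-sided exact binomial test in scipy 1.17.1 over genes with at least 10 counts in sum, Benjamini-Hochberg adjusted. Values are mean ± SD, n = 2. On simulated counts for replicate 2 over replicate 1 with counting error only, and with no minimum ratio, it recovered 98% of 50 genes changed 2-fold and 96% of 50 changed 0.5-fold over 450 genes tested. Coefficients of variation came from edgeR 4.0.16. Other scalings (TMM, DESeq2 1.42.0), pseudocounts, filters, strands and denominators were tried. No value could be given for Mir30f, which is not counted under that name here.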

Additional observations from a re-analysis of the deposited data

How the results depend on the processing

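The family's share of counts was 1.94% of all reads, 3.73% of uniquely mapped reads, 3.95% with both strands, and 4.36% and 5.26% without genes sharing 22 and 18 or more bases. Mir130b was at 6834 CPM with both strands. The log2 ratio of the Mir130 pair over the Mir301 pair was 2.24 without Mir130a. Between list medians the family exceeded Mir148 and Mir152 by 4.69, Mir29 by 7.86 and Mir30 by 1.34 on the log2 scale. With the leading gene of either list left out these were 4.83, 7.89 and 0.15. Without genes sharing 22 or more bases they were 9.38 for Mir29 and 2.41 for Mir30, the latter without Mir30e but with Mir130a. The members' median lay 4.87 above that of detected genes in log2(CPM + 1), and 8.24, 3.12 and 11.61 above with at least 1 count, at least 100 counts and no filter. Genes called between the libraries numbered 15, with 179 without a minimum ratio, 35 at a minimum of 0.5 and 13 with DESeq2 size factors. The cause of these shifts was not tested, beyond the changed denominators and gene sets.

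No result changed direction under any alternative run, and 84 of the other values were classed as unmoved, by the spread between libraries, a fixed band or a threshold. Many of these could not have moved. With 2 libraries, leaving out either replicate cannot shift a mean by more than their SD. Members without antisense counts keep their ratios to each other when both strands are counted. The difference between Mir130b and Mir301b does not depend on which other pairs are kept. Leaving out either replicate moved the share between 3.99% and 4.17%. With TMM or DESeq2 sizes the members' log2 ratios between the libraries kept their signs and stayed under the minimum ratio. No paired analysis was possible because there is 1 group. For Mir301b, 555 and 673 counts in replicates 2 and 1 set the precision.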
